A study of Mus musculus with 12 samples.

Results

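The genes described are 10 subunits and feedback regulators of NF-kB. They are the subunit genes Rela, Relb, Nfkb1 and Nfkb2, the IkB genes Nfkbia, Nfkbiz and Bcl3, and the regulator genes Tnfaip3, Zc3h12a and Birc3. They were chosen by name, as the rows of the expression table that carry these symbols, and make up 10 of the 55450 genes in the table. The choice was made with earlier results of these data known. All 10 were among the 20612 genes with enough reads to be tested, and the lowest count of any of them in any library was 463, for Zc3h12a.

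RNA-seq was carried out on cultured type II alveolar epithelial (AT2) cells, the surfactant-making cells of the alveolus, with 3 libraries in each of 4 groups (12 libraries). The cells came from AhRfl/fl mice, which carry a floxed gene for the aryl hydrocarbon receptor (AhR), or from Sftpc-Cre;AhRfl/fl mice, which carry the same floxed gene and in addition a Cre recombinase driven by the promoter of the AT2 gene Sftpc. Cells of each genotype were given PBS or cockroach extract (CRE) at 50 ug/ml for 24 h, and both lines were on a C57BL/6 background and used at 6 to 8 weeks of age, matched for age and sex. The cells had been freed with dispase, enriched by depleting leukocytes, erythroid cells and Sca-1 positive cells, and plated on collagen, so the enrichment was by depletion and not by an AT2 marker. The comparisons ask how the extract changes these genes, and whether the change differs between the genotypes. The floxed allele is shared by all 4 groups, so no group here has an unmodified Ahr gene. No group has Cre without the floxed gene either, so effects of Cre and of AhR loss cannot be told apart. Nothing in the labels ties the libraries to separate animals, so the p-values measure the spread between these libraries, which may be technical.

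NF-kB is a family of dimeric transcription factors held in the cytoplasm by IkB proteins until IkB kinase marks the inhibitor for destruction. Once in the nucleus, the dimers switch on inflammatory genes and, among them, the genes of their own inhibitors, which makes the response self-limiting. In the lung epithelium the pathway is known for driving neutrophil-attracting chemokines after contact with allergens and microbes.

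Because NF-kB feeds back on its own inhibitor genes through kappaB sites, the 250 bases before the start site are printed for 5 of the genes, from RefSeq promoters on build GRCm38.p6. A RefSeq promoter was found for 7 of the 10 genes, with 10 start sites; Nfkb1, Relb and Nfkbiz had no entry. Each sequence is given 5' to 3' on the strand of its gene, and capitals mark matches to the kappaB consensus, searched on both strands. Nfkbia, at chr12:55492648-55492897 (minus strand), and Nfkb2, at chr19:46304487-46304736 (plus strand) for the first of its 3 start sites, stand for genes that rose and hold a match. Zc3h12a, at chr4:125127882-125128131 (minus strand), rose most and holds none, Rela, at chr19:5637291-5637540 (plus strand), is the subunit that moved least, and Tnfaip3, at chr10:19015411-19015660 (minus strand) for the first of its 2 start sites, is the member whose libraries scattered most. The RefSeq start site of Zc3h12a lies outside the GENCODE gene, which ends at 125127840. The bases after that start site matched no GENCODE transcript, so its window is less certain than the others.
Nfkbia: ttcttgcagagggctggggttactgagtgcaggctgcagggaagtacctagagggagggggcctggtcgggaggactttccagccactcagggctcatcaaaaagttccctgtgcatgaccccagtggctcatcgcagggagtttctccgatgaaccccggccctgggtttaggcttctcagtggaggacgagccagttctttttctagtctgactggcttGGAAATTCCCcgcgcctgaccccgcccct
Nfkb2: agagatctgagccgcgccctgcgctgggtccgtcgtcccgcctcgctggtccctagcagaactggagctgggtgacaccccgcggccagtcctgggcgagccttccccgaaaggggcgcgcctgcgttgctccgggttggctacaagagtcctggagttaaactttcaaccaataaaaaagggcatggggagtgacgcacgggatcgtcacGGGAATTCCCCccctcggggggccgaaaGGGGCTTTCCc
Zc3h12a: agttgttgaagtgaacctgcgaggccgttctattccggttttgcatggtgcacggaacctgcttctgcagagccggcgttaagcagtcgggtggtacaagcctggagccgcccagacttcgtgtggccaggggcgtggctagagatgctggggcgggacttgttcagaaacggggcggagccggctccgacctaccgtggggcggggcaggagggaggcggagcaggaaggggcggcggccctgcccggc
Rela: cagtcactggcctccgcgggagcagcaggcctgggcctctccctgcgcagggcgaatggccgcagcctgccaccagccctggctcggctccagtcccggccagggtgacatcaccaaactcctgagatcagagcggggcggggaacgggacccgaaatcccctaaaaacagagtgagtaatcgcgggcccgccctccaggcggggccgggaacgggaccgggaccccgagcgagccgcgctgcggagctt
Tnfaip3: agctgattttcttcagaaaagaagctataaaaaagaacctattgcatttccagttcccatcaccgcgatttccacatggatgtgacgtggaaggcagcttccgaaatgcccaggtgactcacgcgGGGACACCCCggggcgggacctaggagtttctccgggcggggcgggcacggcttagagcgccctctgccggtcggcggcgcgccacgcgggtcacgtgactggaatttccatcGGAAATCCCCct
The kappaB consensus was present in these windows of Nfkbia, Nfkb2 and Tnfaip3, and in none of the windows of Rela, Zc3h12a, Bcl3 and Birc3. It occurred in 3.9% of all 32851 RefSeq promoter windows of the same length. In Nfkbia the match ran from -29 to -20 relative to the start site, and it also fitted the narrower classical kappaB form, which is part of the consensus and occurred in 0.356% of the windows. Nfkb2 held a palindromic match from -39 to -30, which reads the same on both strands, an overlapping match on the opposite strand from -38 to -29, and a further match from -11 to -2. Its other 2 start sites, not printed, each had 1 match too, and the one at the third, from -225 to -216, fitted the classical form. The core of the AhR response element, GCGTG on either strand, occurred in 28.2% of all windows, in the windows of Zc3h12a and Tnfaip3 (at both of its start sites) and in those of the second and the third start site of Nfkb2, with 2 matches each. It was in neither the printed window of Nfkb2 nor those of Nfkbia, Rela, Bcl3 and Birc3. These are matches of letters, not measured binding.

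The libraries held between 68878065 and 80935797 counts, and each member was well above the limit that a count of 0 allows. Cyp1b1, an enzyme gene switched on by AhR, was lower in Sftpc-Cre;AhRfl/fl cells with both treatments, at 31.7 to 63.9 CPM (counts relative to library size, with TMM scaling) against 344 to 465 CPM in AhRfl/fl cells, a log2 fold change of -3.14 averaged over treatments (edgeR, adjusted p = 2.36e-05). The count of Ahr itself did not differ by the test (log2 fold change -0.07, adjusted p = 0.884); it pools exons inside and outside the floxed part, so it does not check the deletion. Sftpc, the defining AT2 gene, lay between 3086 and 6492 CPM, lowest in the replicate 1 libraries of Sftpc-Cre;AhRfl/fl cells with PBS and with CRE. The AT2 markers summed to 6344 to 11458 CPM, and markers of other cells were present too: club cell markers summed to 4022 to 8201 CPM, fibroblast markers to 123 to 350.1 CPM, endothelial markers to 41.4 to 90.5 CPM and leukocyte markers to 59.7 to 690.2 CPM. The club cell sum was nearly all Scgb1a1, with group means of 4676 to 5940 CPM, so it does not measure the share of club cells. The next highest gene of that list, Foxj1, a marker of ciliated cells, had group means of 48.8 to 81.8 CPM. Ptprc, which encodes the leukocyte antigen CD45 used to deplete leukocytes, was highest in the replicate 1 libraries of every group, at 47.4 to 67.5 CPM, against 2.19 to 20.7 CPM in the others.

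The members that rose with CRE were the IkB genes Nfkbia, Nfkbiz and Bcl3, with Zc3h12a, Birc3 and the subunit gene Nfkb2. In the fit with same-numbered libraries as pairs and by DESeq2, Nfkb1 rose too. In AhRfl/fl cells 3 of the 10 members rose by edgeR's test without the pairs, none of them a subunit gene (Nfkbia, Nfkbiz and Zc3h12a), where 0.218% of all genes tested were called higher. In Sftpc-Cre;AhRfl/fl cells the same 3 members rose, where 0.228% of all genes were called higher; without PBS replicate 2 of that genotype the count was 1. Averaged over both genotypes, 6 of the 10 rose (Zc3h12a, Nfkbiz, Nfkbia, Birc3, Bcl3 and Nfkb2), against 0.864% of all genes. None fell, and all 10 log2 fold changes were above 0 (49.6% of all genes), with a median of 0.56 against 0.00 over all genes tested. The members were chosen with earlier results of these data known, so these contrasts with all genes are not independent of that choice. In such bulk libraries, fewer cells of a type and less RNA per cell cannot be told apart.

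**Figure D1:**
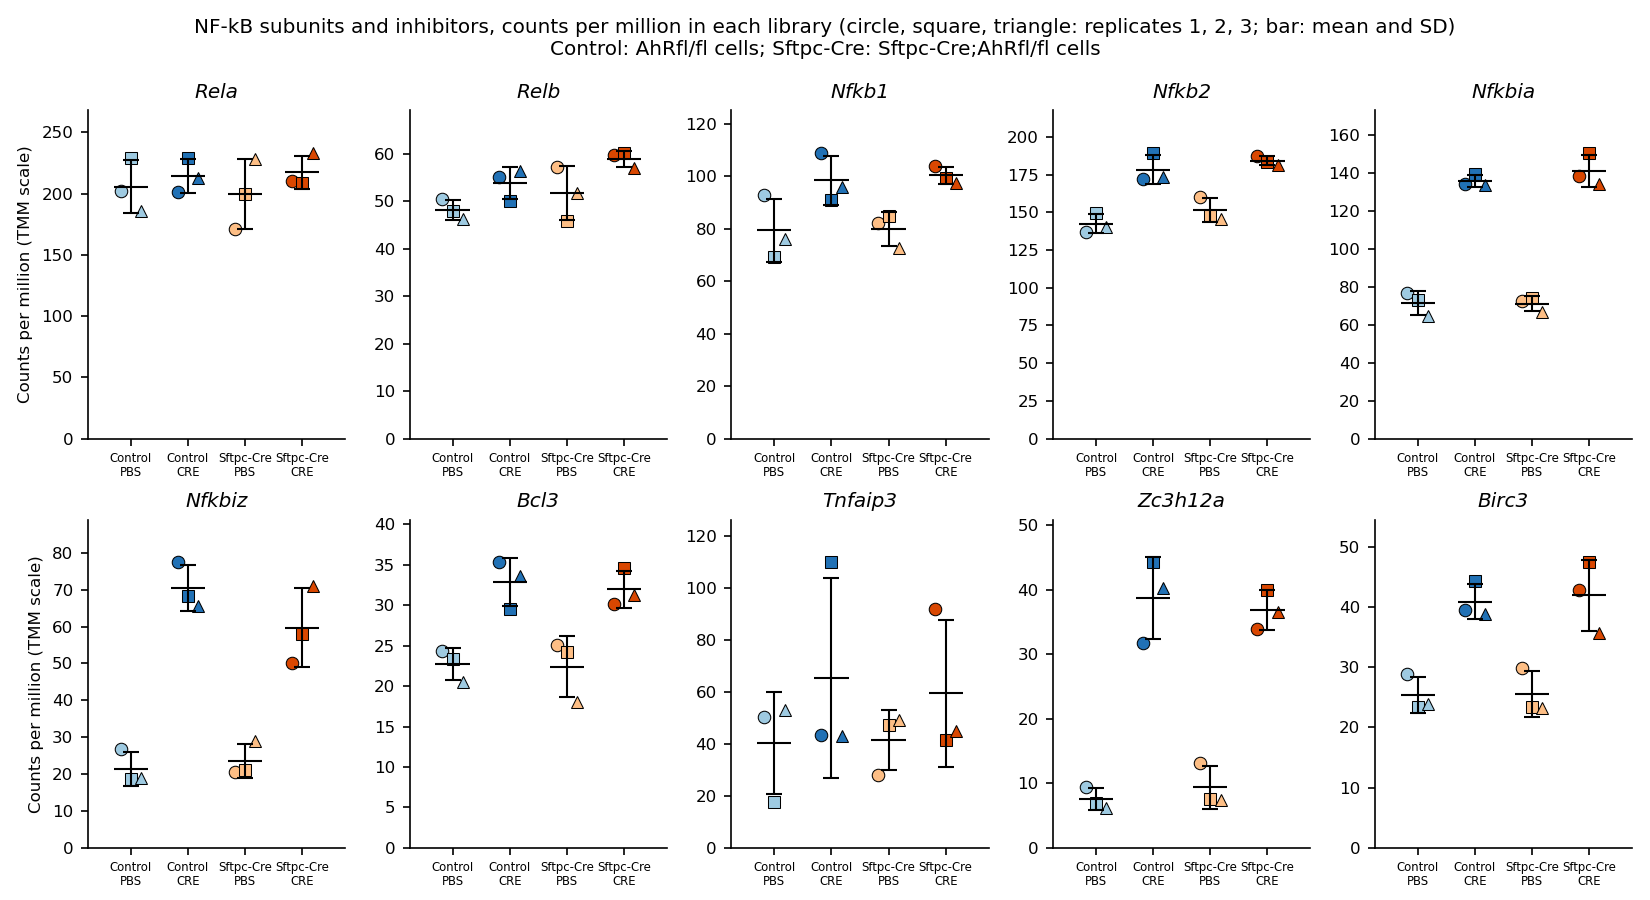
CPM of the 10 members in each of the 12 libraries, by genotype (Control: AhRfl/fl) and treatment. Points are libraries, bars the mean and SD of 3. Nfkbia, Nfkbiz, Zc3h12a, Bcl3, Birc3 and Nfkb2 show all CRE libraries above all PBS libraries, and Tnfaip3 shows 1 high CRE library in each genotype, at 109.8 and 91.9 CPM.

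Nfkbia encodes IkBa, the classical inhibitor that is itself an NF-kB target (chr12:55489410-55492647). In AhRfl/fl cells its CPM was 77.0, 73.0 and 64.5 with PBS and 134.5, 139.5 and 133.8 with CRE (mean 71.5 ± 6.37 and 135.9 ± 3.12, SD, n = 3). In Sftpc-Cre;AhRfl/fl cells it was 72.7, 74.1 and 66.8 with PBS and 138.6, 150.5 and 134.1 with CRE (71.2 ± 3.90 and 141.1 ± 8.51, SD, n = 3). Every CRE library lay above every PBS library, and the 4 groups were tight. The log2 fold change was 0.93 (SE 0.08, edgeR adjusted p = 0.00108) in AhRfl/fl cells and 0.99 (SE 0.08, edgeR adjusted p = 8.38e-04) in Sftpc-Cre;AhRfl/fl cells, and within the pairs of same-numbered libraries the rise was 1.75-fold to 2.07-fold.

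Nfkbiz encodes IkBz, a nuclear IkB protein that acts as a co-activator for a subset of NF-kB targets, including antimicrobial genes (chr16:55811375-55838899). Its CPM in AhRfl/fl cells was 26.8, 18.6 and 19.0 with PBS and 77.4, 68.2 and 65.4 with CRE. In Sftpc-Cre;AhRfl/fl cells it was 20.5, 21.2 and 28.8 with PBS and 50.1, 58.1 and 71.1 with CRE. The groups with PBS and CRE were far apart in both genotypes, and the CRE libraries of Sftpc-Cre;AhRfl/fl cells reached lower than those of AhRfl/fl cells while overlapping them. The log2 fold change was 1.71 (SE 0.19, edgeR adjusted p = 0.00426) in AhRfl/fl and 1.35 (SE 0.19, edgeR adjusted p = 0.0148) in Sftpc-Cre;AhRfl/fl cells. In this fit without the pairs, the call in Sftpc-Cre;AhRfl/fl cells was lost without some single libraries of that genotype. Leaving out replicate 1 with PBS gave a log2 fold change of 1.26 (edgeR adjusted p = 0.0689) and replicate 2 with PBS 1.28 (0.095). Leaving out replicate 2 with CRE gave 1.36 (0.0606) and replicate 3 with CRE 1.20 (0.0677). With same-numbered libraries as pairs and all libraries kept, the edgeR adjusted p in these cells was 0.0015.

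Zc3h12a encodes Regnase-1, an RNase that destroys the mRNAs of inflammatory genes (chr4:125118423-125127840). It changed most among the members. In AhRfl/fl cells its CPM was 9.50, 6.88 and 6.22 with PBS and 31.7, 44.2 and 40.3 with CRE, and in Sftpc-Cre;AhRfl/fl cells 13.2, 7.54 and 7.37 with PBS and 33.9, 40.0 and 36.6 with CRE. The PBS and CRE groups did not overlap. The log2 fold change was 2.36 (SE 0.25, edgeR adjusted p = 0.00382) in AhRfl/fl and 1.97 (SE 0.25, edgeR adjusted p = 0.00826) in Sftpc-Cre;AhRfl/fl cells, where it was no longer called without PBS replicate 2 (1.84, adjusted p = 0.0524). With the pairs and all libraries kept, the edgeR adjusted p in Sftpc-Cre;AhRfl/fl cells was 0.015.

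Birc3 and Bcl3 had smaller changes. By edgeR without the pairs they were called over both genotypes together, not within each genotype alone. Birc3 encodes the ubiquitin ligase cIAP2, which acts on receptor complexes upstream of IkB kinase (chr9:7848699-7873186). Its CPM was 28.8, 23.5 and 23.9 with PBS and 39.5, 44.3 and 38.9 with CRE in AhRfl/fl cells, and 29.9, 23.4 and 23.2 with PBS and 42.8, 47.4 and 35.7 with CRE in Sftpc-Cre;AhRfl/fl cells. All 6 CRE libraries lay above all 6 PBS libraries, with a log2 fold change averaged over genotypes of 0.70 (SE 0.10, edgeR adjusted p = 0.00637). Bcl3 encodes an atypical IkB protein that binds the p50 and p52 subunits in the nucleus (chr7:19808462-19822770). Its CPM was 24.4, 23.4 and 20.5 with PBS and 35.3, 29.6 and 33.7 with CRE in AhRfl/fl cells, and 25.04, 24.19 and 18.04 with PBS and 30.1, 34.6 and 31.3 with CRE in Sftpc-Cre;AhRfl/fl cells. These groups did not overlap either, and the averaged log2 fold change was 0.52 (SE 0.09, edgeR adjusted p = 0.026). Without the pairs, the Bcl3 call was the least secure: it was lost in 7 of the 12 fits that left out 1 library (AhRfl/fl PBS replicates 2 and 3, CRE replicates 1 and 3; Sftpc-Cre;AhRfl/fl PBS replicate 2, CRE replicates 2 and 3), with an adjusted p of up to 0.0799. With the pairs and all libraries kept, its averaged edgeR adjusted p was 0.0127. Within AhRfl/fl and Sftpc-Cre;AhRfl/fl cells it was then 0.0608 and 0.0835.

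Of the subunit genes, Nfkb2 rose slightly and evenly. Nfkb2 encodes p100, the precursor of p52 and a subunit of the non-canonical branch (chr19:46304320-46312385). Its CPM was 137.2, 149.6 and 140.3 with PBS and 172.4, 189.2 and 173.3 with CRE in AhRfl/fl cells, and 160.2, 148.3 and 145.7 with PBS and 187.4, 183.5 and 181.7 with CRE in Sftpc-Cre;AhRfl/fl cells. Every CRE library was above every PBS library, although the rise within pairs was only 1.17-fold to 1.27-fold. The averaged log2 fold change was 0.30 (SE 0.04, edgeR adjusted p = 0.00803). Its libraries were among the most alike: the within-group SD of log2 CPM was 0.06, at or above that of 3.02% of 14543 genes of at least 1 CPM.

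Nfkb1, which encodes p105 and p50 (chr3:135584655-135691547), had nearly the same averaged log2 fold change as Nfkb2, 0.32, but with a wider spread (SE 0.08, edgeR adjusted p = 0.098). Its CPM was 92.9, 69.2 and 76.0 with PBS and 108.9, 90.9 and 95.8 with CRE in AhRfl/fl cells, and 82.3, 85.1 and 72.8 with PBS and 104.1, 99.5 and 97.5 with CRE in Sftpc-Cre;AhRfl/fl cells. The groups overlapped in AhRfl/fl cells through PBS replicate 1, the highest PBS library, and without it the averaged value was 0.38 (adjusted p = 0.0262). Relb, the partner of p52, had an averaged log2 fold change of 0.18 (SE 0.06, edgeR adjusted p = 0.276) over a range of 45.9 to 60.2 CPM. Rela, which encodes the main activating subunit p65, had one of 0.09 (SE 0.08, edgeR adjusted p = 0.779) over a range of 171.2 to 233.0 CPM. The 95% interval of the Rela value was -0.08 to 0.26, so a rise of up to 1.20-fold could not be told from none.

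Tnfaip3 encodes A20, the ubiquitin-editing enzyme that shuts off signalling to IkB kinase (chr10:19000910-19015657). Outside the subunit genes, it was the 1 member that did not pass the test in any of these comparisons. Its CPM in AhRfl/fl cells was 50.6, 17.8 and 53.0 with PBS and 43.5, 109.8 and 43.0 with CRE, and in Sftpc-Cre;AhRfl/fl cells 28.2, 47.2 and 49.1 with PBS and 91.9, 41.4 and 45.0 with CRE. In each genotype 1 pair of libraries stood apart, with the lowest PBS value and the highest CRE value: replicate 2 of AhRfl/fl cells (6.17-fold) and replicate 1 of Sftpc-Cre;AhRfl/fl cells (3.25-fold). In the remaining 4 pairs the CRE library was slightly below its PBS library, at 0.811-fold to 0.918-fold. The averaged log2 fold change was 0.61 (SE 0.35, edgeR adjusted p = 0.604), and it became 0.31 without AhRfl/fl CRE replicate 2 and 0.38 without Sftpc-Cre;AhRfl/fl CRE replicate 1. Within AhRfl/fl cells the value of 0.69 became 0.10 without CRE replicate 2 and 0.34 without PBS replicate 2. Within Sftpc-Cre;AhRfl/fl cells that of 0.52 became 0.06 without CRE replicate 1 and 0.30 without PBS replicate 1. Its within-group SD of log2 CPM, 0.71, was at or above that of 91.4% of genes.

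**Figure D2:**
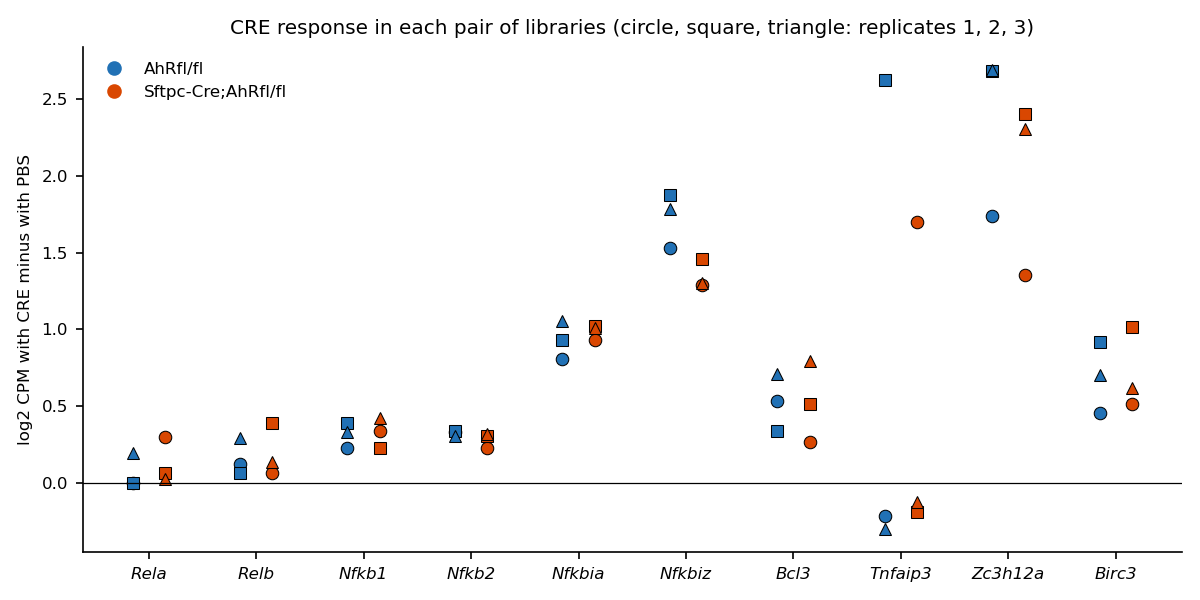
Difference in log2 CPM between the CRE and the PBS library of the same number and genotype, for each member; each point is 1 of 6 pairs. All 6 points are above 0 for 8 members, Rela has 5 above 0, and Tnfaip3 has 2 high points and 4 just below 0.

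Same-numbered CRE and PBS libraries of a genotype deviated together, so the comparison was also fitted with the pairs. With the replicate block within genotype, 6 of the 10 members rose in AhRfl/fl cells, where 1.87% of all genes were called higher, and 6 in Sftpc-Cre;AhRfl/fl cells (1.33% of all genes). Beside Nfkbia, Nfkbiz and Zc3h12a these were Nfkb1 (adjusted p = 0.0332 and 0.0355 in AhRfl/fl and Sftpc-Cre;AhRfl/fl cells), Nfkb2 (0.00982 and 0.0169) and Birc3 (0.0342 and 0.0359). Averaged over genotypes 7 members rose, against 3.47% of all genes; Nfkb1 joined the list (adjusted p = 0.0051), and Rela, Relb and Tnfaip3 did not pass (0.312, 0.126 and 0.583). By DESeq2 without the pairs, 6 members rose in each genotype (Nfkbia, Nfkbiz, Zc3h12a, Birc3, Bcl3 and Nfkb2), where 1.6% of genes with an adjusted p were called higher in AhRfl/fl and 1.1% in Sftpc-Cre;AhRfl/fl cells, and 7 rose averaged over genotypes, Nfkb1 among them (2.67% of genes). By the study's rule, an unadjusted limma p under 0.05 with an absolute log2 fold change over 0.5, 5 members rose in each genotype (Nfkbia, Nfkbiz, Zc3h12a, Bcl3 and Birc3), where 2.4% of all genes in AhRfl/fl and 1.84% in Sftpc-Cre;AhRfl/fl cells rose. Groups without overlap were found for 6 members in AhRfl/fl cells (8.82% of all genes were higher in that way), 7 in Sftpc-Cre;AhRfl/fl cells (6.49%) and 6 over all 12 libraries (1.09%).

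**Figure D3:**
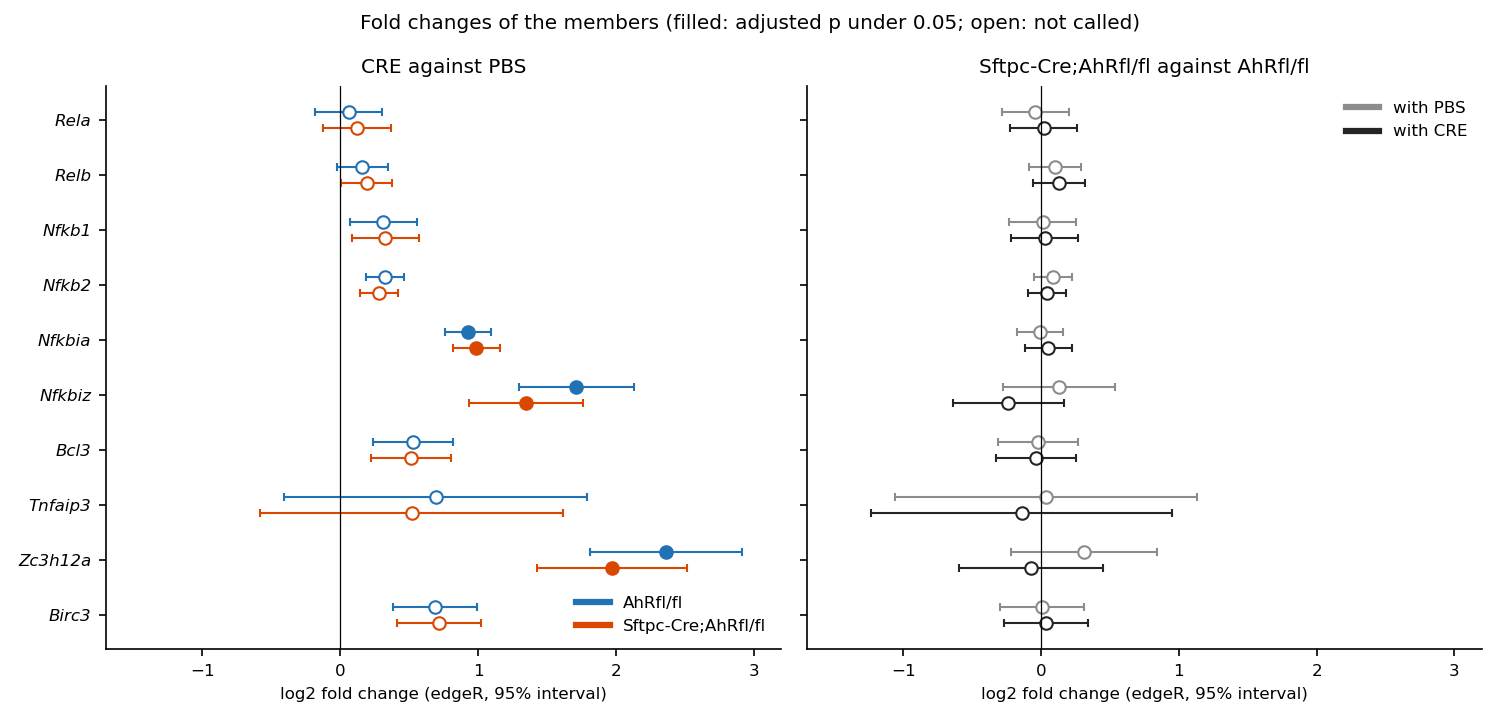
Log2 fold changes of the 10 members by edgeR with 95% intervals, for CRE against PBS in each genotype (left) and for Sftpc-Cre;AhRfl/fl against AhRfl/fl cells with each treatment (right); filled points have an adjusted p under 0.05. The CRE values reach 2.36, and all the genotype values lie between -0.24 and 0.31 with intervals that include 0.

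Between the genotypes no member differed by the test. With PBS 0 of 10 members passed edgeR's test, where 0.15% of all genes did, and with CRE 0 of 10 (0.17% of all genes). Averaged over treatments it was also 0 of 10 (0.631% of all genes), 0 at an unadjusted p under 0.05, and 0 by DESeq2, limma-trend and limma-voom; the smallest adjusted p was 0.573, for Relb. Some members were measured closely enough to bound the difference: the 95% interval of the averaged log2 fold change was -0.10 to 0.14 for Nfkbia, -0.03 to 0.16 for Nfkb2 and -0.02 to 0.25 for Relb. For others it was wide, -0.34 to 0.23 for Nfkbiz, -0.25 to 0.49 for Zc3h12a and -0.83 to 0.72 for Tnfaip3, so a genotype difference of that size was not detectable. Relb was the 1 member whose genotypes did not overlap with CRE, at 55.1, 50.1 and 56.5 CPM in AhRfl/fl and 59.8, 60.2 and 57.1 CPM in Sftpc-Cre;AhRfl/fl cells, against 11% of all genes without overlap in either direction.

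Whether the CRE response itself differed between genotypes was tested as an interaction, and 0 of 10 members passed (edgeR; 0% of all genes, and 0 members at an unadjusted p under 0.05). DESeq2, limma-trend and limma-voom also called 0 members. For Nfkbia the difference between the responses was 0.06 on the log2 scale (95% interval -0.18 to 0.30), a narrow bound. For Nfkbiz it was -0.37 (-0.94 to 0.21) and for Zc3h12a -0.39 (-1.13 to 0.36), that is, the estimated rise was smaller in Sftpc-Cre;AhRfl/fl cells without passing the test. Nfkbiz was the 1 member whose pairs did not overlap between genotypes: the log2 rise was 1.53, 1.87 and 1.78 in the pairs of AhRfl/fl cells and 1.29, 1.46 and 1.30 in those of Sftpc-Cre;AhRfl/fl cells. Of all genes 17.5% had pairs without overlap, and with the replicate block the interaction of Nfkbiz had an unadjusted p of 0.0121 and an adjusted p of 0.494 (edgeR).

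The balance between members was followed as ratios of CPM within a library, for which scaling between libraries cancels. CPM is not divided by gene length, so the change of a ratio can be read, but not which of its genes is higher. The ratio of Nfkbia to Rela, inhibitor to activator, was 0.353 with PBS and 0.642 with CRE (geometric means of 6 libraries each), a log2 difference of 0.86. In an exact two-sided permutation test within genotype, with 400 arrangements and a smallest possible p of 0.005, it had p = 0.005, adjusted over the 4 ratios to 0.02. The ratio of Nfkbiz to Nfkbia rose from 0.311 to 0.465 (log2 difference 0.58, exact permutation p = 0.015, adjusted 0.03), but the adjusted p was 0.05 without AhRfl/fl PBS replicate 2 or CRE replicate 1, 2 or 3, and 0.06 without Sftpc-Cre;AhRfl/fl PBS replicate 1 or 2. The ratio of Nfkb2 to Nfkb1 differed by -0.02 on the log2 scale (p = 0.815 by the same permutation test) and that of Relb to Rela by 0.08 (adjusted permutation p = 0.64). Swapping labels only within the 6 pairs of same-numbered libraries allows 64 arrangements and a smallest p of 0.0313. Nfkbia to Rela and Nfkbiz to Nfkbia were higher with CRE in 6 of 6 pairs. Each had an exact permutation p of 0.0313, the smallest possible, adjusted to 0.0625. With only these 2 of the 4 ratios at the smallest p, neither could be adjusted to under 0.05, so the paired test cannot decide these calls. Between genotypes the adjusted permutation p was 0.705 for each of the 4 ratios.

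The levels of the members per length were compared with the deposited FPKM, which divides each count by a fixed length per gene. In AhRfl/fl cells with PBS Rela was highest, at 59.6 ± 5.96 FPKM (SD, n = 3), followed by Nfkbia (39.6 ± 4.10), Nfkb2 (27.7 ± 0.865), Relb (11.1 ± 0.691) and Bcl3 (8.20 ± 0.824), and the libraries of each of these did not overlap those of the next. Nfkb1, Tnfaip3, Birc3 and Nfkbiz followed at 5.88, 5.01, 4.52 and 3.83 FPKM, each overlapping its neighbour, and Zc3h12a was lowest at 2.33 ± 0.586 FPKM. With CRE the order changed: Nfkbia moved above Rela (75.3 ± 1.98 against 62.2 ± 3.19 FPKM), and Nfkbiz, Relb, Zc3h12a and Bcl3 came to lie together at 12.5, 12.4, 12.0 and 11.8 FPKM. The place of Zc3h12a depended on the length used: with CRE it ranked 6 of 10 by FPKM, but 10 per kb of the longest coding transcript, as with PBS, while Nfkbia ranked above Rela on both scales. On the second scale Zc3h12a still rose from 2.73 to 14.05 CPM per kb and came level with Birc3, at 14.06. The length behind the FPKM was worked back from the counts, the FPKM and the library totals, so it depends on the total used. It was nearer to that of all annotated exons together than to that of 1 transcript. For Nfkb1 it came to 13405 bases or more, against 12061 for all exons and 4117 for the longest coding transcript. Genes with many alternative exons therefore rank low on this scale.

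**Figure D4:**
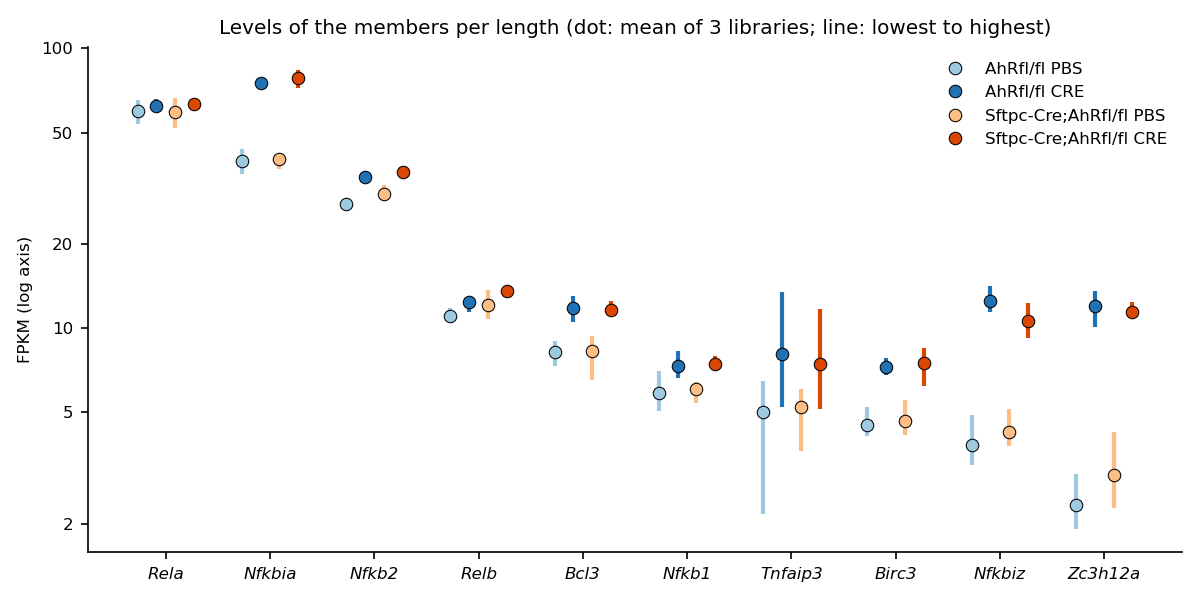
FPKM of the members on a log axis, ordered by their mean in AhRfl/fl cells with PBS; dots are means of 3 libraries and lines run from the lowest to the highest library. Nfkbia rises above Rela with CRE in both genotypes, and Nfkbiz and Zc3h12a leave the low end of the order on this scale. Per kb of the longest coding transcript Zc3h12a has rank 10 in AhRfl/fl cells with PBS and CRE, but with CRE it is level with Birc3 (14.05 and 14.06 CPM per kb).

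Genes that varied most like the members over the 12 libraries were sought among 14533 other genes by the root mean square difference of centred log2 CPM. Nearest to Nfkbia were the complement gene C3 (0.13), Gsta3 (0.15) and Slc11a2 (0.16), where Nfkbia itself varied with a root mean square of 0.48. Nearest to Nfkbiz were 1500015A07Rik (0.22), the cystine transporter gene Slc7a11 (0.27) and Lcn2 (0.28), which encodes an iron-withholding antimicrobial protein, against 0.80 for Nfkbiz itself. Nearest to Zc3h12a were U90926 (0.34), Noxo1 (0.42) and Hcar2 (0.43), against 1.13. The measure includes the step from PBS to CRE, so a shared CRE response by itself brings genes near. The averaged log2 fold change with CRE was 1.06 for C3, 0.98 for Gsta3 and 0.75 for Slc11a2, against 0.96 for Nfkbia. All the genes named near these 3 members were themselves called higher with CRE averaged over genotypes (edgeR). The nearest gene to Tnfaip3, named after its values were seen, was Gm10509, at 0.41 against 0.65 for Tnfaip3 itself, a wider gap relative to its own variation than for the other 3.

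Around the members, 2 genes of the 5 signalling lists passed the test with CRE averaged over genotypes, and 13 of 39 target genes. Of all genes 1.1% passed it. The lists, like the members, were chosen with earlier results of these data known, so this contrast is not independent of that choice. Averaged over genotypes, 0 of 5 other Rel and IkB genes were called by edgeR (median log2 fold change 0.47, with Nfkbie at 0.55 and Nfkbid at 0.54), 0 of 14 adaptor and TRAF genes (median 0.06, Traf3 0.42 and Malt1 -0.29) and 0 of 19 receptor genes (median 0.05, Tlr2 0.55 and Cd40 0.54), beside 0.00 over all genes. Of 14 IkB kinase and upstream kinase genes 1 rose: Ikbkg, which encodes the regulatory subunit NEMO, with a log2 fold change of 0.88 (SE 0.14, edgeR adjusted p = 0.014). Its CPM was 93.6, 66.7 and 82.3 with PBS and 127.4, 201.7 and 170.3 with CRE in AhRfl/fl cells, and 85.3, 78.6 and 86.5 with PBS and 131.2, 106.8 and 171.6 with CRE in Sftpc-Cre;AhRfl/fl cells. All CRE libraries were higher than all PBS libraries. G6pdx overlaps Ikbkg on the opposite strand by 19712 bases and had a log2 fold change of 0.18 (adjusted p = 0.393); whether the counting used strand is not given in the sources used here, so the counts of the overlap are uncertain.

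Of 24 genes of ubiquitin editing and RNA decay, 1 rose: Tnip3, which encodes an A20-binding inhibitor of NF-kB, with a mean of 140.9 CPM with PBS and 291.2 CPM with CRE in AhRfl/fl cells and of 174.2 and 363.4 CPM in Sftpc-Cre;AhRfl/fl cells (averaged log2 fold change 1.05, SE 0.11, edgeR, adjusted p = 9.83e-04). Of 39 textbook NF-kB target genes tested, 13 rose and none fell, with a median of 0.71. The 6 with the largest changes were Saa3, an acute-phase protein gene (3.80), the neutrophil chemokine genes Cxcl5 (3.60), Cxcl2 (3.46), Cxcl1 (2.99) and Cxcl3 (2.86), and Ccl20 (2.705), which attracts dendritic cells and lymphocytes. Cxcl5 went from a mean of 6.80 to 66.6 CPM in AhRfl/fl cells and from 3.32 to 50.1 CPM in Sftpc-Cre;AhRfl/fl cells. Saa3 was rare, at a mean of 0.343 CPM with PBS and 3.83 CPM with CRE in AhRfl/fl cells and of 0.157 and 2.79 CPM in Sftpc-Cre;AhRfl/fl cells. With the replicate block within genotype 28 target genes and 15 genes of the other 5 lists were called, where 6.59% of all genes were.

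Between genotypes, averaged over treatments, 2 target genes were lower in Sftpc-Cre;AhRfl/fl cells: Ptgs2, which encodes cyclooxygenase-2 (log2 fold change -1.06, SE 0.11, edgeR, adjusted p = 9.74e-04), and Ier3 (-0.53, SE 0.09, adjusted p = 0.0276). The mean of Ptgs2 was 553.0 and 839.1 CPM with PBS and CRE in AhRfl/fl cells and 284.1 and 377.0 CPM in Sftpc-Cre;AhRfl/fl cells. The count of 2 became 1 when any 1 library was left out other than AhRfl/fl CRE replicate 1 or Sftpc-Cre;AhRfl/fl replicate 1 with either treatment. Of the receptor genes, Il18r1, which encodes a chain of the interleukin-18 receptor, was higher (0.63, SE 0.08, adjusted p = 0.00495).

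**Figure D5:**
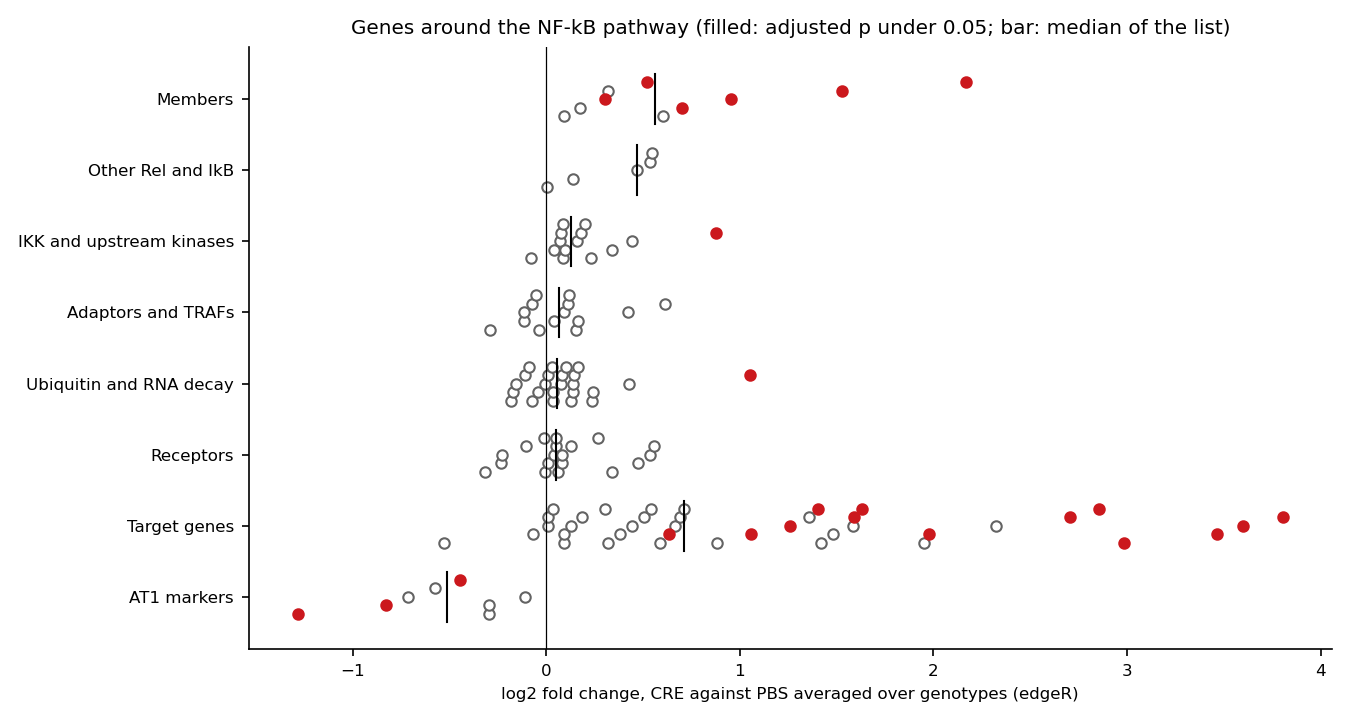
Log2 fold change of CRE against PBS averaged over genotypes for each member, each gene of the pathway lists and each AT1 marker; every point is a gene, filled points have an adjusted p under 0.05 and bars are medians. The members (median 0.56) and target genes (0.71) lie to the right, the adaptors (0.06) and receptors (0.05) around 0 and the AT1 markers (-0.51) to the left.

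Markers of the alveolar type I (AT1) state moved with the CRE response. Of 8 AT1 markers 3 fell, namely Rtkn2 (-1.28), Ager (-0.83) and Clic5 (-0.45), and none rose (edgeR); 5 fell with the replicate block. The summed AT1 markers were 1669 to 2107 CPM with PBS and 1119 to 1403 CPM with CRE in AhRfl/fl cells, and 1769 to 2398 CPM and 1295 to 1657 CPM in Sftpc-Cre;AhRfl/fl cells, and none of the 8 was at 0 in all libraries. Of 12 AT2 markers 1 fell, Etv5 (-0.47), and with the replicate block 3 fell (Abca3, Etv5 and Sftpc) and 2 rose (Lamp3 and Sftpd). No leukocyte, fibroblast, endothelial or club cell marker was called by edgeR without the pairs. With the replicate block, averaged over genotypes, 3 of 21 leukocyte markers fell (Siglecf, Laptm5 and Cd79a) and 1 rose (Adgre1), 3 of 9 fibroblast markers fell (Col1a1, Col1a2 and Col3a1), 1 of 5 club cell markers fell (Scgb1a1) and 0 of 7 endothelial markers were called. Siglecf, which marks alveolar macrophages and eosinophils, was rare: its CPM was 3.35, 0.282 and 0.271 with PBS and 0, 0 and 0.0537 with CRE (counts of 0, 0 and 4) in AhRfl/fl cells, and 2.66, 0.693 and 1.02 with PBS and 0.190, 0.0547 and 0.354 with CRE in Sftpc-Cre;AhRfl/fl cells. Its averaged log2 fold change was -4.47 (edgeR adjusted p = 0.0605; 0.0342 with the replicate block, 2.87e-05 by DESeq2). Summed leukocyte markers were 59.7 to 690.2 CPM with PBS against 63.8 to 617.7 CPM with CRE in AhRfl/fl cells and 138.4 to 497.7 CPM against 134.2 to 487.0 CPM in Sftpc-Cre;AhRfl/fl cells. The part of these markers in the changes of the members was not tested.

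Some members share sequence with other annotated genes. Psd overlaps the end of Nfkb2 on the opposite strand by 299 bases and had a log2 fold change of 0.69 (edgeR, adjusted p = 0.06) at a mean of 8.50 to 15.9 CPM, far below Nfkb2. The non-coding AC114539.1 overlaps the start of Nfkb2 on the opposite strand by 1292 bases (0.28, adjusted p = 0.51). Gm43430 lies within Nfkb1 on the same strand over 3897 bases, and Gm16174 and Gm16175 lie antisense within Bcl3, so the counts of these 3 members are uncertain to the extent of those reads.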

How the data were processed

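RNA was sequenced from 12 libraries of a stranded mRNA kit. Per the submitters' notes and the study's methods, the authors aligned reads with STAR 2.7.2b to mouse build GRCm38 and used Partek and Salmon for quantification; the strand setting of the counting is not given in the sources used here. The deposited tables hold counts per gene, as whole numbers, and FPKM; the 12 single tables were identical to the combined one. Gene positions are from GENCODE M21 on GRCm38.

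Counts were tested with edgeR 4.0.16 (R 4.3.3) by the quasi-likelihood test, with TMM scaling, filterByExpr (minimum count 10) and all 4 groups in 1 fit; p-values were adjusted by Benjamini-Hochberg over all 20612 genes and called under 0.05. CPM use TMM scaling and log2 CPM a prior count of 2. Totals of 68878065 to 80935797 counts make 3 counts, the limit of detection, a small share of 1 CPM. The count test was checked on simulated data. Alternatives were DESeq2 1.42.0, limma 3.58.1 (trend and voom), the study's rule, RLE or library-size scaling, other filters, log2(FPKM + 1), only the groups compared, each library left out, and replicate blocks. Levels per kb of the longest coding transcript and swaps within pairs for the ratios were added after the data were seen. Figures were drawn with matplotlib 3.10.9.

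Same-numbered CRE and PBS libraries of a genotype deviated together from their group means (r = 0.729, 0.418 and 0.651 in AhRfl/fl and 0.589, 0.542 and 0.325 in Sftpc-Cre;AhRfl/fl cells, over 14543 genes), so they were taken as pairs.

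The members and lists were chosen with earlier results of these data known. Named were all 10 members; from each other list, the called genes, at most the 6 with the largest change, or, with no call, the 2 largest of at least 1 CPM; the 3 genes nearest to each of the 3 members that changed most; and Ahr, Cyp1b1 and Sftpc. Ptprc, Siglecf, the markers called with the replicate block, G6pdx, Psd, the other overlapping genes and the gene nearest to Tnfaip3 were added after their values were seen.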

Additional observations from a re-analysis of the deposited data

How the results depend on the processing

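Of 1380 values of member log2 fold changes over the alternatives, 1251 kept their direction and side of the threshold, 15 lost the call, 22 gained it and 92 changed sign. Of the sign changes 1 was in a CRE comparison (Rela in AhRfl/fl cells, -0.0061 to 0.14 with 1 library left out, the lowest without PBS replicate 3); the others were differences between genotypes or between the CRE responses, which were not called to begin with. Where a result changed, the cause was not tested.

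For CRE in AhRfl/fl cells the counts of members, other pathway genes (the 5 signalling lists together) and target genes called (3, 1 and 5) were 6, 5 and 14 by DESeq2, 5, 5 and 18 by the study's rule, and 6, 8 and 20 with the replicate block within genotype. In Sftpc-Cre;AhRfl/fl cells (3, 1 and 6) they were 6, 2 and 15 by DESeq2, 5, 4 and 19 by the study's rule, and 6, 5 and 19 with that block. Averaged over genotypes, other pathway genes (2) were 11 by DESeq2, 4 by the study's rule and 15 with the block, and target genes (13) were 21 by the study's rule and 28 with the block. With the replicate number as a term instead, the block gave 11 and 12 target genes in AhRfl/fl and Sftpc-Cre;AhRfl/fl cells, and 7 other pathway genes and 21 target genes averaged. With only the groups compared, AhRfl/fl cells had 0 other pathway genes and 3 target genes, and Sftpc-Cre;AhRfl/fl cells 1 member, 0 other pathway genes and 2 target genes. For the genotype difference, DESeq2 called 2 other pathway genes (1), the study's rule 2 other pathway genes and 5 target genes (2), and log2(FPKM + 1) 1 target gene, and log2(FPKM + 1) gave 2 other pathway genes for CRE in AhRfl/fl cells.

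With 1 library left out, other pathway genes ranged from 0 to 2 and target genes from 1 to 5 in AhRfl/fl cells, members from 1 to 3, other pathway genes from 0 to 1 and target genes from 2 to 6 in Sftpc-Cre;AhRfl/fl cells, and target genes of the averaged genotype difference from 1 to 2. The lowest target counts with CRE came without PBS replicate 2 of either genotype.

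Genotype differences with PBS, with 1 library left out, ran from -0.077 to 0.14 for Nfkb1, -0.15 to 0.059 for Rela, -0.075 to 0.050 for Nfkbia, -0.043 to 0.32 for Nfkbiz, -0.32 to 0.28 for Tnfaip3, -0.014 to 0.52 for Zc3h12a, -0.11 to 0.11 for Bcl3 and -0.12 to 0.11 for Birc3. With CRE they ran from -0.028 to 0.10 for Nfkb1, -0.033 to 0.071 for Rela, -0.60 to 0.46 for Tnfaip3, -0.20 to 0.033 for Zc3h12a, -0.11 to 0.018 for Bcl3 and -0.046 to 0.14 for Birc3. Averaged they ran from -0.025 to 0.083 for Nfkb1, -0.064 to 0.040 for Rela, -0.010 to 0.052 for Nfkbia, -0.14 to 0.043 for Nfkbiz, -0.28 to 0.25 for Tnfaip3, -0.044 to 0.22 for Zc3h12a, -0.072 to 0.038 for Bcl3 and -0.042 to 0.075 for Birc3. Differences of the CRE response ran from -0.11 to 0.10 for Nfkb1, -0.079 to 0.0031 for Nfkb2, -0.039 to 0.17 for Rela, -0.047 to 0.11 for Relb, -0.64 to 0.42 for Tnfaip3, -0.15 to 0.071 for Bcl3 and -0.071 to 0.16 for Birc3. Library size alone turned Nfkbia with PBS to 0.027, Bcl3 with PBS to 0.013, averaged Rela to 0.0064 and the response difference of Nfkb1 to -0.015; log2(FPKM + 1) turned the same 4 to 0.028, 0.00055, 0.0066 and -0.012 and averaged Tnfaip3 to 0.026. Averaged Tnfaip3 was also 0.031 by limma-trend and the study's rule and 0.024 by limma-voom.

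With the replicate block as swaps within pairs, added after the pairing was seen, the ratios of Nfkbia to Rela (0.86) and Nfkbiz to Nfkbia (0.58) kept their values. Their adjusted permutation p was 0.0625 each. With 2 ratios at the smallest possible p this test could give no lower value, so it cannot decide these calls. The ratio of Nfkbiz to Nfkbia kept its direction with 1 library left out (0.50 to 0.68), and that of Nfkb2 to Nfkb1 ran from -0.092 to 0.045. Between genotypes Nfkbia to Rela ran from -0.024 to 0.11 and Nfkb2 to Nfkb1 from -0.029 to 0.11. By CPM without division by length, the ranks in AhRfl/fl cells with PBS were 3 for Nfkb1, 2 for Nfkb2, 5 for Relb, 4 for Nfkbia, 6 for Tnfaip3, 8 for Bcl3 and 7 for Birc3; per kb of the longest coding transcript, 5 for Nfkb1 and 6 for Bcl3.

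Between the 2 genotypes, the replicate 1 libraries deviated together (r = 0.420 with PBS and 0.413 with CRE). Replicates 2 and 3 hardly did (0.0416 and 0.106 with PBS, -0.0286 and 0.0867 with CRE). Same-numbered libraries of the 2 genotypes were therefore not taken as pairs, although replicate 1 shared a deviation across them. The replicate number as a term moved the genotype calls over all genes from 31 to 71 with PBS, from 35 to 55 with CRE and from 130 to 223 averaged, with 0 members in each; the block within genotype cannot be fitted to genotype differences. Beyond the values given here and beside the results, the pairing changed no call of a member. The lowest count of a member was 463, so counting error is small beside the spread between the 3 libraries of a group.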

Other observations

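Zc3h12a varied with the replicate number in both genotypes. With PBS the replicate 1 libraries were highest, at 9.50 CPM in AhRfl/fl and 13.2 CPM in Sftpc-Cre;AhRfl/fl cells, against 6.22 to 7.54 CPM in the other PBS libraries. With CRE they were lowest, at 31.7 and 33.9 CPM. The log2 rise was 1.74 and 1.36 in the replicate 1 pairs and 2.31 to 2.69 in the other 4. The same libraries held the most Ptprc, 47.4 to 67.5 CPM. The part of leukocyte RNA in these values was not tested.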
